A study of Mus musculus with 8 samples.

Results

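The 4 dye-swap arrays compared the RNA of a fast muscle of the mouse foot, the flexor digitorum brevis (FDB), with that of a slow muscle of the calf, the soleus. They are the 4 of the 8 arrays of the series whose titles set fast against slow muscle in the same kind of RNA. The other 4 form a loop that also crosses muscle with RNA amplification. Both muscles came from CD-1 mice, an outbred stock, aged 4 to 5 weeks, with no treatment or genetic change named, and RNA was extracted with Trizol from each piece of muscle. In the amplified samples the RNA was copied into dye-coupled amplified RNA with an amino allyl kit, and in the un-amplified samples 10 µg of total RNA was copied into amino allyl cDNA from an oligo(dT) primer. The 2 kinds of RNA were each hybridised to 2 arrays. On array 1 of each pair the fast RNA carried Cy3 and the slow RNA Cy5, and on array 2 the dyes were exchanged. The number of animals is not given in the labels, so the spread between the pairs may be technical.

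Skeletal muscle fibres differ in the isoforms of the proteins that make them contract. Slow fibres, which are many in the soleus, use the myosin heavy chain Myh7 with slow troponins and burn fuel in mitochondria, with myoglobin as an oxygen store. Fast fibres use other myosin heavy chains, among them Myh1 (type IIx) and Myh4 (type IIb), which the array held, and Myh2, which it did not. They also have fast troponins, and in rodents hold parvalbumin, which binds calcium and speeds relaxation. In a whole muscle, a higher ratio can come from more fibres of a type or from more of the RNA per fibre, and these cannot be told apart here.

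Each array held 22 features, 20 with a gene name and 2 known only by their probe numbers (19 to 24 and 97 to 102), at 6 spots each. Of the 20 names, 19 had a mouse gene identifier and CAMTA1 had not. Of the 528 gene spots on the 4 arrays, 426 (80.7%) were usable, which here means that the image software marked them neither poor nor empty in both channels. The pairs differed in this. The pair whose scanner files are labelled amplified, called the first pair, had 81 and 104 usable spots of 132 on its arrays. The second pair, whose files are labelled un-amplified, had 119 and 122. The median ratio of spot signal to local background was 3.18 and 6.54 in the fast channel of the first pair and 89.7 and 125 in that of the second. In the slow channel it was 5.92 and 6.14 in the first pair and 423 and 98.0 in the second. The background itself was 3024 and 723 intensity units in the fast channel of the first pair, against 77.7 and 35.1 in the second. On array 1 of the first pair, 31 of the 81 usable spots were also marked empty in 1 of the channels.

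**Figure D1:**
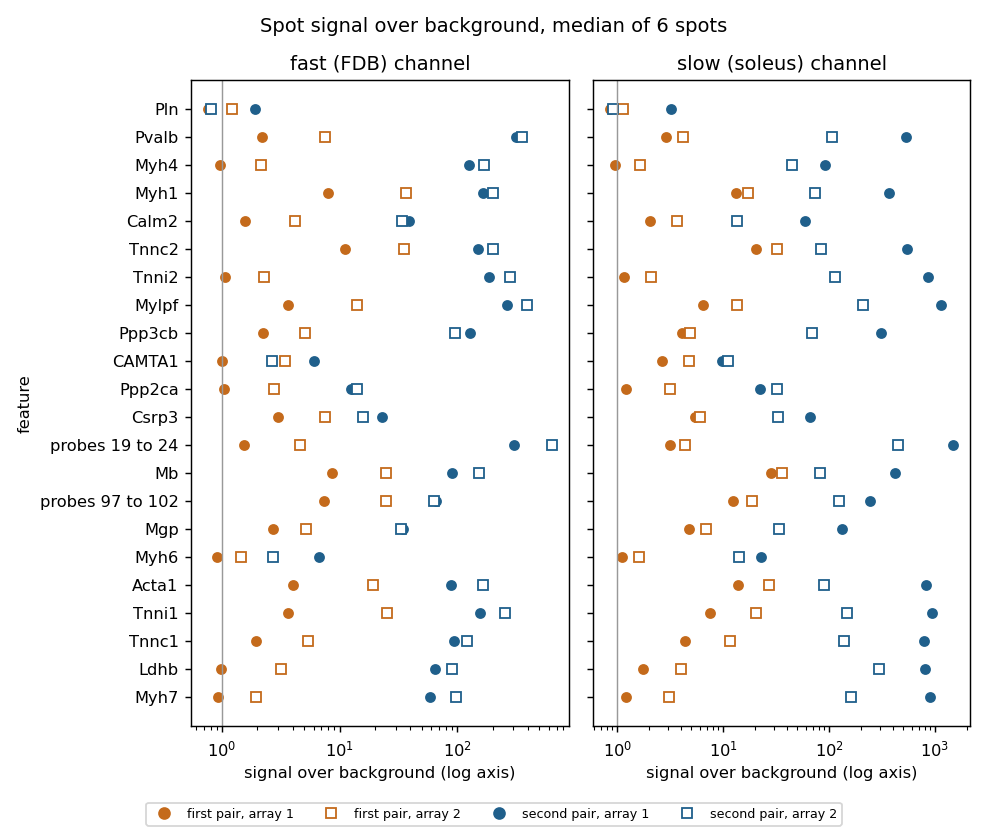
Ratio of spot signal to local background (log axis, median of 6 spots, all spots) for each of the 22 features on each array, in the fast channel at left and the slow channel at right. Circles are array 1 and squares array 2 of a pair, orange is the first and blue the second pair, and the grey line marks a ratio of 1. The first pair lies nearer to the line than the second for nearly every feature, and Pln lies near it on all arrays.

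The amplification labels of the pairs are in doubt. The ratios that the authors put in the series table were compared with the scanner files after scaling each array by 1 fitted factor. The factor was 0.999 and 0.987 for the arrays of the first pair and 0.775 and 0.901 for those of the second. A match was a difference within 0.0003 natural-log units. For the samples labelled un-amplified, the table ratios matched the files of the first pair in 108 of 108 and 132 of 132 values. Those of the samples labelled amplified matched the files of the second pair in 125 of 126 and 123 of 124 values. Files and table thus give each pair opposite labels, and below the pairs are named first and second only. For 1 array of the second pair the file headers gave the other dyes than the file names, and the matches held with the dyes of the headers, which were used.

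The ratio of fast to slow signal was taken on the log2 scale per spot, averaged over the usable spots, and set relative to the median feature of its array. A value of 1 therefore means a doubling relative to that median, and positive values mean more signal from the FDB. The mean of the arrays of a pair, in which the dye effect cancels, is 1 replicate ratio, which gives n = 2 per feature. By their labels the pairs held different kinds of RNA, so they are not repeats of 1 kind. The SD, SE and p-value over the pairs thus also hold any difference between amplified and un-amplified RNA. Both pairs gave a ratio for 14 features, 7 had one in the second pair only, and Pln had none.

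Over both pairs, parvalbumin (Pvalb) was the feature that passed the test, and it was higher in fast muscle. It was 4.30-fold higher, with a mean log2 ratio of 2.10 ± 1.85 (SD, n = 2; adjusted p = 0.00783 by limma). This is 1 of 14 features tested, or 7.14%, and 3 of the 14 had an unadjusted p below 0.05. The others were Myh1, 2.48-fold higher (1.31 ± 0.83, n = 2, limma adjusted p = 0.105), and the slow troponin C gene Tnnc1, 2.26-fold lower (-1.18 ± 0.36, n = 2, limma adjusted p = 0.122). In the second pair alone, which had no replicate, the slow myosin Myh7 had a ratio of -3.08, the heart-type lactate dehydrogenase Ldhb one of -2.17 and the IIb myosin Myh4 one of 2.28.

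limma gave every feature the same variance here, pooled over the 14, so the SE of each mean was 0.47, below what the pairs of Pvalb alone would give. With each feature's own variance, 0 of 14 passed and 1 had an unadjusted p below 0.05. The call of Pvalb was lost in 11 of the 20 alternatives that tested it, among them plain background subtraction (limma adjusted p = 0.0646). A higher or lower ratio on all 4 arrays was seen for 4 of the 14 features (28.6%): Pvalb, Myh1 and the fast light chain Mylpf were above 0 on each, and Tnnc1 was below 0 on each.

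**Figure D2:**
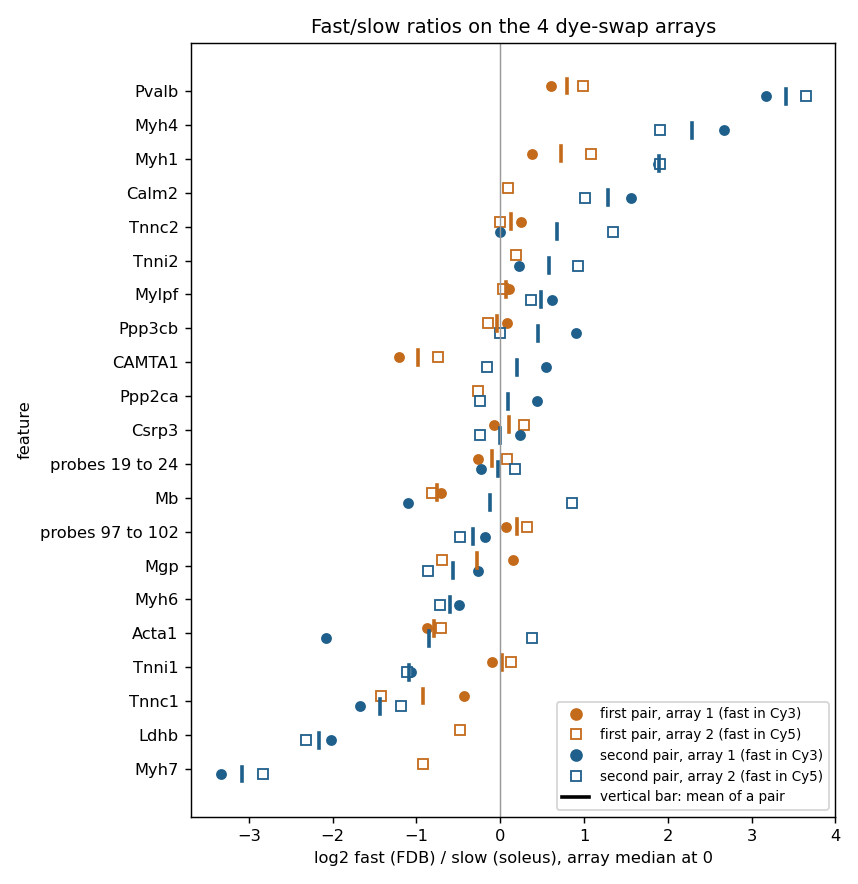
Log2 fast/slow ratio (x axis) of the 21 features with a usable ratio on both arrays of at least 1 pair, ordered by the second pair. Points are arrays, in orange for the first and blue for the second pair, filled where fast RNA carried Cy3 and open where it carried Cy5, and vertical bars are pair means. The second pair runs from -3.08 (Myh7) to 3.41 (Pvalb), and the mean of Pvalb in the first pair is 0.79.

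Among the myosin heavy chains, Myh1 was measured on every array. Its log2 ratios were 0.38 and 1.08 in the first pair and 1.88 and 1.91 in the second. All lay above 0, and both arrays of the second pair lay above both of the first. With loess centring its pair means were 0.77 in the first and 0.87 in the second pair. Myh4 had no usable spot in the first pair and ratios of 2.67 and 1.90 in the second. Its net signal, after the local background is taken off, was 8186 and 4309 units in the fast channel of the second pair, and 588 and 1423 in the slow channel. Myh7 had ratios of -3.34 and -2.83 in the second pair, the lowest of any feature there. Its net signal was 4515 and 5036 in the fast channel and 23124 and 47903 in the slow. In the first pair Myh7 had no usable spot on array 1. On array 2 it had a ratio of -0.93 over 3 usable spots, 2 of them marked empty in the fast channel. Myh6, the alpha myosin heavy chain of the heart, had ratios of -0.49 and -0.71 in the second pair only, where its net signal was at most 233 units. The second-pair mean of Myh6 ranged from -2.05 to -0.30 over 11 alternatives, and there was none where dim features or spots marked empty in either channel were left out.

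Myh7, Myh4 and Myh6 had no ratio averaged over both dyes in the first pair, so they were not in the test over both pairs. From integral signals, the loop arrays gave a log2 fast/slow ratio of -2.94 for Myh7 and 2.52 for Myh1, the same direction as here. For Myh4 the loop gave -1.32, against 2.28 in the second pair, and its direction was thus not the same in the series' experiments. In the ratios of the authors' series table, averaged and centred in the same way, Myh4 was at 2.62 in the columns that match the second pair and at -1.47 in those that match the first, where the image software marked all of its spots empty.

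The troponins make the actin filament respond to calcium. Slow troponin C, Tnnc1, had log2 ratios of -0.43 and -1.42 in the first pair and -1.68 and -1.18 in the second. The 4 values were all below 0 and the pairs overlapped. On array 1 of the first pair, all 6 of its usable spots were marked empty in the fast channel, at a signal 1.93 times the background. Slow troponin I, Tnni1, had -0.10 and 0.13 in the first pair and -1.06 and -1.11 in the second. The first pair thus lay on either side of 0 and the second about 1 log2 unit below it. The first-pair signals were 3.63 times the background or higher, and the cause of the difference between the pairs was not tested. The mean of Tnni1 was -0.53 ± 0.78 (n = 2, limma adjusted p = 0.660).

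Fast troponin C, Tnnc2, had 0.25 and 0.00 in the first pair and 0.00 and 1.35 in the second, where a value of 0.00 marks the median feature of its array. Fast troponin I, Tnni2, which inhibits actin and myosin at rest, had 0.23 and 0.93 in the second pair. In the first it had 1 usable spot, on array 2, with a ratio of 0.19. Its net fast signal was 149 and 815 units in the first pair and 38183 and 24172 in the second. Mylpf, the regulatory light chain of fast fibres, had 0.10 and 0.04 in the first pair and 0.62 and 0.37 in the second (mean 0.28 ± 0.30, n = 2, limma adjusted p = 0.790).

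Counted as groups, the slow contractile list had 3 of its 8 genes on the array and the fast list 5 of its 9. In the second pair all 3 slow genes (Myh7, Tnnc1 and Tnni1) lay below 0, with a median of -1.43, and all 5 fast genes lay above 0, with a median of 0.68. Over all 21 features of that pair, 10 lay above 0 and 11 below, with a median of 0.00. In the first pair the 2 slow genes with a ratio had a median of -0.45 and the 3 fast genes one of 0.13. None of the 2 slow and 3 fast genes that were tested passed limma's test. On the loop arrays the 3 slow genes were below 0, and 2 of the 5 fast genes were too, Myh4 at -1.32 and Tnni2 at -0.33. The features chosen for the array are mostly known markers of these fibre types, so the direction of a group is not independent of that choice.

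For parvalbumin itself, the ratios were 0.60 and 0.99 in the first pair and 3.17 and 3.65 in the second. All 4 were above 0, and the pairs did not overlap, with a first minus second difference of -2.62 that was not tested. The net signal was 3481 units in the fast against 2147 in the slow channel on array 1 of the first pair, and 4670 against 2366 on array 2. In the second pair it was 45377 against 2451 and 18386 against 1803. The net slow signal thus lay between 1803 and 2451 units on all arrays, and the net fast signal was higher in the second pair; these signals were not scaled between arrays. On array 1 of the first pair the 6 usable spots of Pvalb were all marked empty in the fast channel, where their signal was 2.21 times the background. Its first-pair ratio was 0.84 with plain subtraction of the background and 0.71 with none. Where spots marked empty in either channel were left out, Pvalb had no first-pair ratio and was not tested. Myh1 was then the called feature, with a mean of 1.27 and a limma adjusted p of 0.0330 over 9 features.

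Another calcium-handling gene, phospholamban (Pln), a brake on the calcium pump of slow fibres and the heart, was marked empty in all 6 spots of every array. Of the calcium signalling list, calmodulin (Calm2) had 1.56 and 1.02 in the second pair and 0.09 on array 2 of the first. The calcineurin catalytic subunit Ppp3cb had 0.08 and -0.15 in the first pair and 0.91 and 0.00 in the second. Ppp2ca, the catalytic subunit of protein phosphatase 2A, had -0.27 on array 2 of the first pair and 0.44 and -0.24 in the second. The 1 of these 3 that was tested, Ppp3cb, did not pass (mean 0.21, limma adjusted p = 0.844). CAMTA1, named for a calmodulin-binding transcription activator, had -1.21 and -0.75 in the first pair and 0.55 and -0.15 in the second. Its first-pair values were thus both below 0, and on array 1 its fast signal was at the level of the background. Its first-pair mean ran from -2.99 with plain background subtraction to -0.52 with none and -0.36 with loess. In the second pair its net signal was at most 231 units, and on array 2 all 6 of its spots were marked empty in the fast channel.

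Of the oxidative genes, Ldhb, which favours the use of lactate as fuel, had -2.02 and -2.31 in the second pair. Array 2 of the first pair gave -0.48 for it, and array 1 had no usable spot. Its net signal in the second pair was 1809 and 1438 in the fast and 3720 and 10098 in the slow channel. The loop gave -1.76 for Ldhb. Myoglobin (Mb) was a strong feature on every array, with net signals of 17134 units or more, and had -0.71 and -0.81 in the first pair. In the second pair its arrays went opposite ways, at -1.11 over 2 usable spots and 0.85 over 4.

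Skeletal actin (Acta1), the thin-filament protein of both fibre types, did likewise. It had -0.88 and -0.70 in the first pair and -2.08 and 0.38 in the second, yet the pair means were -0.79 and -0.85 (limma adjusted p = 0.370). The dye effect, the mean log2 Cy3/Cy5 ratio with the muscles cancelled, was -1.23 for Acta1, -0.98 for Mb and -0.68 for Tnnc2 in the second pair, and -0.09, 0.05 and 0.13 in the first. By limma the dye effect averaged over both pairs passed the test in 0 of 14 features (0%). An effect in 1 pair alone was not tested. For the averaged effect none (0) had an unadjusted p below 0.05 by limma, and the lowest adjusted p was 0.756. Csrp3, a muscle LIM protein of the Z-disc, had pair means of 0.10 and -0.00. Matrix Gla protein (Mgp), an inhibitor of calcification made by connective tissue and vessels, had pair means of -0.27 and -0.56. For Mgp the arrays of the first pair went opposite ways, at 0.16 and -0.70, and the second pair gave -0.26 and -0.86. The 2 features without a gene name stayed within 0.48 of 0 on every array.

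Markers of other tissues were few. Of the fixed lists, connective tissue was represented by Mgp and heart and smooth muscle by Myh6, while endothelium and blood, nerve, fat, immune cells and glycolysis had 0 genes on the array. Other cells in the muscles were therefore hardly measured, and their part in the ratios was not tested.

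Over the 14 shared features, Pearson's r between the pairs was 0.720 and Spearman's rho 0.618, and 9 had the same sign. Without Pvalb r was 0.624 over 13 features, and without Pvalb and Myh1 it was 0.413 over 12. The features share an array design, so these are descriptions of the arrays. Within a pair, array 1 and array 2 gave r = 0.720 over 14 features in the first and r = 0.827 over 21 in the second. The SD of the ratios over the 14 features was 0.56 for the first pair and 1.24 for the second. Of these features, 10 had the larger absolute ratio in the second pair and 4 in the first (Mb, CAMTA1, Csrp3 and the feature of probes 19 to 24).

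**Figure D3:**
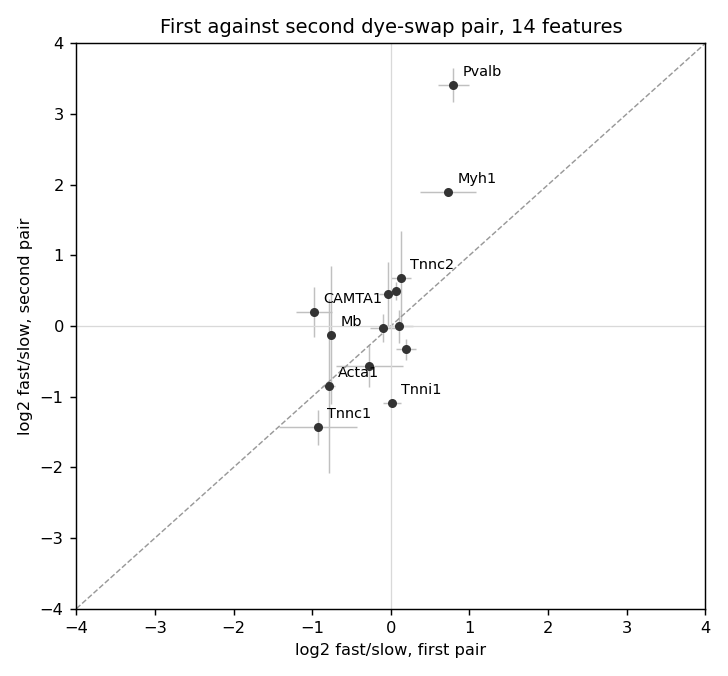
Mean log2 fast/slow ratio of the first pair (x axis) against the second (y axis) for the 14 features measured in both; grey bars reach to the values of the single arrays, and the dashed line marks equal ratios. Pvalb (0.79 and 3.41) and Myh1 (0.73 and 1.90) lie well above the line and Tnni1 (0.02 and -1.08) below it. CAMTA1 (-0.98 and 0.20) differs in sign. Its fast signal was at background on array 1 of the first pair and marked empty on array 2 of the second.

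The SD over the spots of a feature had a median of 0.16 on array 1 of the first pair and of 0.08 to 0.09 on the other arrays. Each feature was printed as 2 blocks of 3 spots, and the absolute difference between the block means had a median of 0.18, 0.12, 0.06 and 0.07 on the 4 arrays. Its highest value was 0.37, for Tnnc1 on array 1 of the first pair. Against this, the distance of a single array from its pair mean had a median of 0.15 in the first and 0.26 in the second pair, with a highest value of 1.23 (Acta1). The ratio exceeded that distance in 8 of 14 features of the first pair and in 13 of 21 of the second.

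The loop arrays gave a second estimate of the same contrast, each feature's fast/slow ratio with the dye cancelled. It used the loop arrays that set un-amplified RNA of a muscle against amplified RNA of the other muscle. Their signals were integral intensities without the normexp correction of the pairs, so the measures differ. For the 13 features with all values, the difference between the dye-swap pairs and the loop passed limma's test in 0 (0%). None (0) had an unadjusted p below 0.05, and the lowest adjusted p was 0.667. The furthest apart were Myh1, whose loop ratio of 2.52 stood against a dye-swap mean of 1.31, and Mgp, with 0.73 against -0.42. The single loop estimate was assumed to vary like the pairs. The SE of the difference was 0.66 for Myh1 and for Mgp, and the size of difference that so few arrays could detect was not tested. If the pairs are taken alone, the loop ratio of Pvalb, 2.54, lay between its values of 0.79 and 3.41, and the Myh1 ratio of 2.52 lay above both of its values.

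The pairs also differed in the level of the features, apart from any ratio. The level is the mean log2 corrected signal of both channels over all 6 spots, relative to the median feature of the array. Tnni2 was 3.95 higher in the second than in the first pair on this scale, Myh7 3.02 higher and the feature of probes 19 to 24 1.94 higher. On array 1 of the first pair all 6 spots of Tnni2 and of Myh7 were marked empty in both channels, at 1.06 and 1.16 times the background for Tnni2 and 0.92 and 1.22 for Myh7, so the size of their differences is not exact. The second minus first difference was -4.48 for Csrp3, -4.29 for the feature of probes 97 to 102 and -4.11 for CAMTA1, which were thus lower in the second pair. The arrays of a pair had nearly the same levels, with r = 0.975 over 22 features in the first and r = 0.988 in the second, while array 1 of the pairs gave r = 0.523 and array 2 gave r = 0.571.

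These level differences ran with those between amplified and un-amplified RNA on the loop arrays. Tnni2 was 2.89 log2 units higher and Myh7 2.27 higher in amplified RNA there, while Csrp3 was lower, at -2.95, and so was the feature of probes 97 to 102, at -1.46. Over 21 features r was 0.869 and rho 0.823, with 15 of the same sign, and r was 0.792 without Csrp3 and Tnni2. With usable spots alone r was 0.861 over 13 features, with 10 of the same sign, and 0.682 without Csrp3 and the feature of probes 97 to 102. Of the 10 features lower in amplified loop RNA, 9 were lower in the second pair, whose scanner files are labelled un-amplified and whose table columns are labelled amplified. Of the 11 that were higher in amplified loop RNA, 6 were higher in the second pair and 5 lower, among them Mb (1.48 in the loop and -0.80 between the pairs) and Tnni1 (0.35 and -1.05). The comparison was chosen after the label conflict was seen, and it was not tested.

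**Figure D4:**
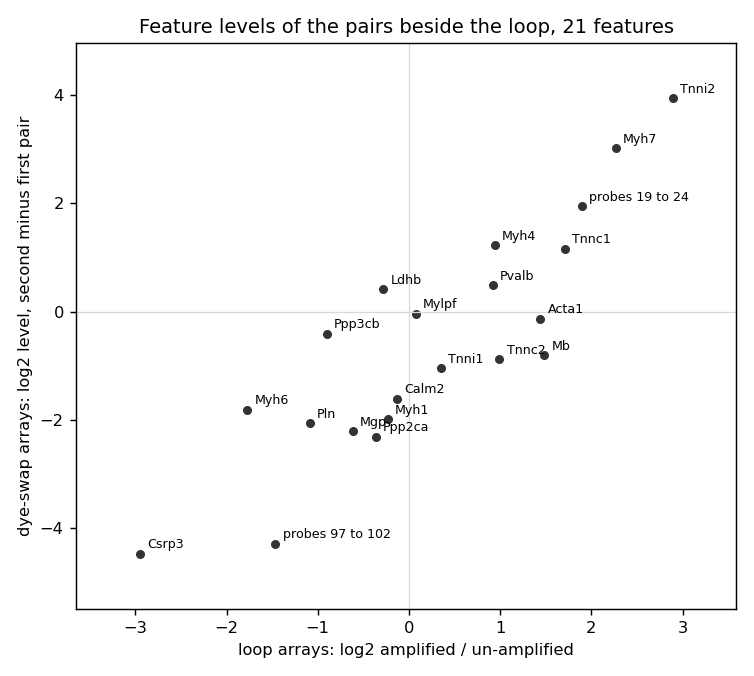
Log2 difference in feature level between amplified and un-amplified RNA on the loop arrays (x axis) against the difference in level between the second and the first dye-swap pair (y axis, all spots), for the 21 features with both. Points run from Csrp3 (-2.95 and -4.48) at lower left to Tnni2 (2.89 and 3.95) at upper right.

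To place the genes that the ratios turn on, the 250 bases before the start of transcription are given for 2 genes above 0 and 2 below 0 in the second pair, from RefSeq promoters of build GRCm38.p6. Capitals mark matches, on either strand, to the MEF2 motif, the site of a factor family that drives muscle genes, and to the MCAT motif CATTCC, the site of TEAD factors. For Pvalb and Myh7 the table lists 2 starts and the first is shown. They lie at chr15:78206401-78206650 (minus strand), chr11:67199852-67200101 (plus strand), chr14:54994627-54994876 (minus strand) and chr14:31208062-31208311 (plus strand), and are written 5′ to 3′ on the strand of the gene.
Pvalb: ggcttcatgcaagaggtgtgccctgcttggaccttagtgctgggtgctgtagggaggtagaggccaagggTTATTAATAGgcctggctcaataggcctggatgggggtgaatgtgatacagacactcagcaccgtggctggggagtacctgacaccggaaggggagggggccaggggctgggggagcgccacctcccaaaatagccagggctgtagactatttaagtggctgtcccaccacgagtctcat
Myh1: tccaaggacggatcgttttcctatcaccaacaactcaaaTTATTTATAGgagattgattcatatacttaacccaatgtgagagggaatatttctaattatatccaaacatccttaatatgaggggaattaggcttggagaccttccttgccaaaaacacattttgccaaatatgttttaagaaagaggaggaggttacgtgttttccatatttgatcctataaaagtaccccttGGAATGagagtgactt
Myh7: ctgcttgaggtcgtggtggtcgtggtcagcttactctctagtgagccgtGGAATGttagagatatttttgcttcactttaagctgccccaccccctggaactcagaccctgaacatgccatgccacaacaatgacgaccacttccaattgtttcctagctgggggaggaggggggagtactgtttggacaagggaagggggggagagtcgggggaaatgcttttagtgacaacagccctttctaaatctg
Tnnc1: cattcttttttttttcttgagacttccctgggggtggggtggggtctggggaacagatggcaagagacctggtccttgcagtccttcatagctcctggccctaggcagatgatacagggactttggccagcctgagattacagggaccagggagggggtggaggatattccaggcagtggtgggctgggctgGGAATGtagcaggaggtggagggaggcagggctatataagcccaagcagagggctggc

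Of the 20 named genes, 16 had a promoter in the table, with 22 starts. The MEF2 motif stood in 3 of these 22 promoters, those of Myh1, Myh4 and 1 of the 2 starts of Pvalb, against 2.92% of all 32851 mouse promoters of this length. In Myh1 and Myh4 it overlapped a match to TATAAA. These 3 genes were the highest in the second pair, with log2 fast/slow ratios of 1.90 for Myh1, 2.28 for Myh4 and 3.41 for Pvalb. The MCAT motif stood in 6 of the 22, those of Acta1, Myh1, Myh4, Tnnc1, Myh6 and 1 start of Myh7, against 12.6% of all, and these genes had ratios from -3.08 to 2.28. The E box CANNTG, the site of myogenic factors, stood in 18 of the 22 against 66.2% of all, and TATAAA in 4 against 12.4%. A match of letters is no evidence of binding, and its relation to the ratios was not tested.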

How the data were processed

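Per the file headers, ImaGene 5.5 measured the pixel intensity of each spot and of its local background in 8 single-dye images, and no background was subtracted. They also hold the spot area and the SD of the background as deposited signal values. The deposited loop sheets hold integral intensity and a median pixel ratio. The series table gives the authors' ratio of Cy3 to Cy5 per probe, and these values per the labels came from integral intensities through ImaGene and TIGR ExpressConverter. Matching the table to the spots placed 132 probes on the grid of 9 by 16 spots and left 12 spots without a probe.

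Signals were corrected by normexp (offset 50). Spots marked neither poor nor empty in both channels were averaged (those marked empty in 1 channel were kept) as log2 ratios over up to 6 spots per feature, and each array was centred on its median over features. The mean of the arrays of a pair was 1 replicate, tested against 0, two-sided, by limma 3.58.1 in R 4.3.3 with moderated variances, and p-values were adjusted by the Benjamini-Hochberg method (threshold 0.05). Dye effects and the difference from the loop estimate were tested in the same way. Correlations over features are descriptions. The steps were also run on simulated spots that were all usable, unlike those of the arrays. That run thus cannot show how the test behaves where spots are lost. Arrays give no read depth, and their number limits the precision.

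The text names each of the 22 features, since the rule for arrays of 30 features or fewer was to name every one. The features and lists were chosen with earlier results of these data known. Alternatives covered background, signal, centring, spot filters, dyes, the loop, the series table, pooling and leaving out a pair or an array; the median times area signal and leaving out spots marked empty in either channel were chosen after seeing the data.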

Additional observations from a re-analysis of the deposited data

Results flagged for a closer look

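The feature of probes 97 to 102 had log2 fast/slow ratios above 0 on both arrays of the first pair (0.07 and 0.32) and below 0 on both of the second (-0.18 and -0.48), a first minus second difference of 0.52 that was not tested. The groups had 2 arrays each, too few to look for single arrays far from the others.

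Spots to which no probe was matched also gave signal. The 6 such spots in column 1, rows 1 to 3 and 7 to 9, had a fast signal over background of 7.34 on array 1 of the first pair, 16.6 on array 2 of that pair and 11.9 on array 1 of the second, where 6, 3 and 6 of them were usable. Rows 4 to 6 of column 1 had 3 usable spots on array 2 of the first pair, with a fast signal over background of 9.37, and 0 on the other arrays. Column 16, rows 1 to 3, had 0 usable spots on every array, with values from 0.927 to 1.32. The log2 fast/slow ratio of the 6 spots in rows 1 to 3 and 7 to 9 of column 1 was 0.39 ± 0.26 (SD over 6 spots) on array 1 of the first pair and 0.47 ± 0.19 on array 1 of the second. It was -0.06 ± 0.76 on array 2 of the first pair and -0.58 ± 0.36 on array 2 of the second, where 0 of the spots were usable, and the sources used here do not name what was printed there.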

How the results depend on the processing

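Pvalb was the main call, and its mean ratio was above 0 in all 22 alternatives that gave one, from 0.28 with the dyes of the file names to 3.41, but its call was lost in 11 of the 20 that tested it. Against 1 feature called in the main fit, limma called 0 with plain background subtraction (lowest adjusted p = 0.0646), no subtraction (0.310), normexp with an offset of 0 (0.116), integral signals (0.0542), marked spots kept (0.366), at least 3 usable spots per feature (0.0717), the dyes of the file names (0.189), 4 arrays in one fit (0.168) and no pooling of variances (0.30). It called 2 with pixel medians (Pvalb, Myh1) and with the series table's ratios (Pvalb, Myh7), and 5 with the loop estimate added (Pvalb, Myh1, Myh7, Tnnc1, Ldhb). In the fit of 4 arrays, which counts the arrays of a pair as independent, leaving out 1 array gave from 0 calls (without array 1 of the second pair) to 5 (without either array of the first). Leaving out the dim features also left Myh1 in place of Pvalb. The dye effect averaged over both pairs and the difference from the loop had 0 calls in all 15 and 16 alternatives.

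The r within the first pair was 0.483 with plain subtraction, 0.496 with integral signals, 0.60 with marked spots kept and 0.812 with loess. Within the second pair it was 0.730, 0.703 and 0.739 with plain subtraction, integral signals and pixel medians, 0.324 with median times area and -0.827 with the dyes of the file names. Between the pairs it was 0.411 with plain subtraction, 0.440 with integral signals and 0.285 with the dyes of the file names.

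Of 325 mean ratios, 21 changed sign, none of them of a called feature. They were 0.014 for probes 19 to 24 and 0.11 for CAMTA1 with no background subtraction, 0.14 and 0.13 for probes 19 to 24 and 97 to 102 with no centring, and 0.19 for probes 19 to 24 and -0.15 for Ppp3cb with loess. With the dyes of the file names they were 0.022 for Tnni1, -0.27 for Tnnc2, 0.17 for probes 97 to 102 and 0.013 for Mgp. Ppp3cb was at -0.056 with the loop added, and probes 97 to 102 at 0.054 with the series table. Leaving out a pair moved Tnni1 from -1.08 to 0.018, Ppp3cb from -0.033 to 0.455, probes 97 to 102 from -0.330 to 0.194, Csrp3 from -0.00448 to 0.105 and CAMTA1 from -0.977 to 0.197. Leaving out 1 array moved Csrp3 from -0.081 to 0.181, CAMTA1 from -0.828 to 0.048 and probes 97 to 102 from -0.268 to 0.132. The second-pair ratios of Myh7, from -3.40 to -2.47, and Ldhb, from -2.84 to -1.87, kept their direction in 13 alternatives each; with the dyes of the file names they were -0.26 and 0.15. The cause of these changes was not tested. The main test is the same as a fit of the 14 features on 4 arrays with the pair as a block, and the fit of 4 arrays without that replicate block, given above, called 0. Signal over background limits the first pair: 8 of the 22 features had no usable spot on its array 1.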
